A study of Homo sapiens with 6 samples.

Results

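The genes described here are the numbered ZNF genes that reached a set level in control JHH-4 cells. A gene was a member if its symbol was ZNF followed by digits alone and its mean over the control libraries was at least 8 CPM (read counts scaled to 1000000 counted on named genes). This rule took 216 of the 398 ZNF-numbered genes measured, among 12396 genes in all and 9966 genes that reached the same control level. JHH-4 is an established human line of hepatocellular carcinoma, the main cancer of liver cells. RNA was sequenced from cells labelled WT, the control (3 libraries), and from cells of the genotype hsa-miR-372-3p overexpress, in which the microRNA was made from a plasmid carrying its primary transcript (3 libraries). The labels name no dose, time after transfection or empty plasmid, and the level of the microRNA itself is not analysed here. The replicates of each group are described as technical and come from a single line, so p-values measure only the spread between these libraries.

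C2H2 zinc finger proteins read DNA through small zinc-bound folds, each of which contacts a few bases, and most human ones carry many such fingers in a row. A large share also has a KRAB box, which binds the scaffold TRIM28 (KAP1) and through it the histone methyltransferase SETDB1, HP1 proteins and the NuRD complex, so that the bound DNA is packed as silent chromatin. KRAB zinc finger genes lie in tandem clusters, above all on chromosome 19, and many of their products silence transposable elements. The ZNF name is also used for proteins that bind RNA, ribosomes or other proteins, so the members do not share 1 function.

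The sequence of the overexpressed microRNA is shown first because its seed sets which transcripts can pair with it. The gene lies on chromosome 19 beside the ZNF clusters, and the mature strand maps to chr19:53787931-53787953 on the plus strand (RefSeq, GRCh38.p14). Capitals mark the seed, nucleotides 2 to 8.
hsa-miR-372-3p: aAAGUGCUgcgacauuugagcgu

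The longest seed match searched was AGCACTTA, the complement of the seed followed by an A. It was present on the transcript strand of the annotated 3′ UTR of 10 members, and the 6 of these whose level passed the test are shown with flanks in the transcript's direction. Capitals mark the match, and coordinates are those of the match in GRCh38 (GENCODE 29). The matches lie at chr9:96386519-96386526 (minus strand), chr19:36511129-36511136 (minus), chr19:9162377-9162384 (plus), chr19:44176306-44176313 (plus), chr7:100070406-100070413 (minus) and chr19:50047419-50047426 (plus), in the order below.
ZNF367: ttttaatttggAGCACTTAtaagctggtaa
ZNF260: aatattactgtAGCACTTActagcatttct
ZNF317: tgaatcttgtgAGCACTTAcgctaggagaa
ZNF226: agtcgtagatcAGCACTTAatgttcattgc
ZNF3: agagggtcagaAGCACTTAgcgttggcctc
ZNF473: aataaatgtgaAGCACTTAgaactgatggc

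Depth was high in every library. Counts on named genes ran from 46851245 to 47890069 in control and from 51072581 to 60070397 in overexpression, and the least covered member had 1929 counts over the 6 libraries. The first principal component (72.5% of the variance) separated the groups, and on the second (10.2%) control replicate 3 was distant from both other control libraries. Of 10 hepatocyte markers, 4 were measured (KRT8, KRT18, FGB and SERPINA1), with a summed level of 2296 to 2444 CPM in control and 4729 to 4828 CPM in overexpression. Of these 4, KRT8, KRT18 and FGB were called higher (3 genes) and SERPINA1 lower (1 gene). ALB, AFP, APOA1, APOB, TTR and HNF4A are not analysed here. Of the other cell types listed, 1 of 4 blood markers (CD14, 0.716 to 1.63 CPM), 0 of 3 endothelial markers and 2 of 4 stromal markers were measured. The 2 stromal genes, COL1A1 and PDGFRB, had a summed level of 13.1 to 15.4 CPM in control and 81.4 to 87.2 CPM in overexpression. The part of these marker shifts in the results below was not tested.

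As a group the ZNF members moved by small amounts, and more of them rose than fell. In overexpression against control, 69 members were higher and 36 were lower at an adjusted p under 0.05 (edgeR quasi-likelihood test, Benjamini-Hochberg over all 12396 genes), and 111 did not pass. That is 31.9% higher and 16.7% lower. Among the 9966 genes at the same control level, 27.0% were called higher and 29.8% lower, and 56.9% in all. Among all genes tested, 54.5% were called, 26.8% higher and 27.7% lower. The share of members that rose was thus near the background and the share that fell was below it. The median log2 fold change of the members was 0.08, with quartiles of -0.09 and 0.23, beside -0.01 for the genes at the same control level. In 85 members every overexpression library lay above every control library, and in 44 every one lay below. The background for such separation was 29.4% above and 34.5% below.

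The choice of members bears on these counts, since control level chose them. The ZNF genes just inside the threshold were ZNF736 at 8.14 CPM, ZNF627 at 8.20 CPM and ZNF784 at 8.26 CPM in control, and those just outside were ZNF678 at 7.99 CPM, ZNF417 at 7.95 CPM and ZNF124 at 7.73 CPM. In all, 9 ZNF genes were left out although their overexpression mean reached 8 CPM, and 3 of these, ZNF20, ZNF761 and ZNF284, were called higher. Conversely, 5 members had an overexpression mean under 8 CPM, and ZNF528 and ZNF341 among them were called lower. With members chosen by the overexpression mean, 72 were higher and 34 lower. Below the threshold, 18 of 182 ZNF genes were higher (9.89%) and 23 lower (12.6%). Among all genes tested, at any level, 26.8% were higher and 27.7% lower. A background of genes under 8 CPM alone was not counted.

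**Figure D1:**
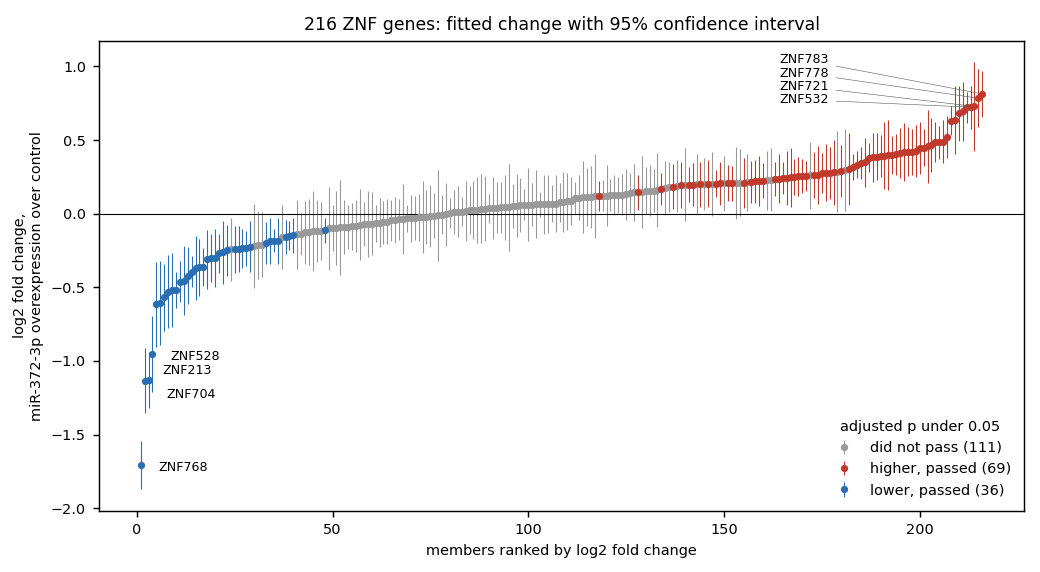
Log2 fold change of each of the 216 members in overexpression against control, ranked from lowest to highest, with 95% confidence intervals from the edgeR fit. The values run from -1.71 for ZNF768 to 0.81 for ZNF783, and the falls reach farther from 0 than the rises.

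The changes were small in most members that passed. Of the 105 called members, 90 changed by less than 1.5-fold, 9 rose by at least 1.5-fold and 6 fell by at least 1.5-fold. At that size the background among genes of the same control level was 4.04% higher and 6.9% lower. No member rose by as much as 2-fold, and 3 fell by more. Summed over all members, the level was 5838 ± 43.9 CPM in control and 6135 ± 29.4 CPM in overexpression (SD, n = 3 libraries), 5.08% higher, and the ranges of the groups did not overlap. In such bulk RNA, fewer cells that express a gene and less RNA per cell cannot be told apart.

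ZNF768, whose protein carries heptad repeats resembling those of the RNA polymerase II tail beside its 10 fingers, fell most. Its level was 62.2, 70.9 and 60.5 CPM in control replicates 1 to 3 and 19.1, 20.6 and 19.3 CPM in overexpression replicates 1 to 3. The lowest control library was thus far above the highest overexpression library. The log2 fold change was -1.71 ± 0.072 (SE), a 3.27-fold fall, with an edgeR adjusted p of 8.98e-08. The gene lies on the short arm of chromosome 16 (chr16:30524001-30526821, minus strand, GRCh38), and neither AGCACTT nor a shorter seed match was found in its annotated 3′ UTR.

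ZNF213, which encodes both a KRAB box and a SCAN domain (a module through which such proteins pair), fell from 18.3, 18.8 and 17.0 CPM in control to 7.16, 8.52 and 8.81 CPM in overexpression. Its log2 fold change was -1.13 ± 0.099 (edgeR adjusted p 9.62e-06). ZNF704, a relative of ZNF395 with a single C2H2 finger by the pattern used here, fell from 20.3, 23.0 and 19.8 CPM to 9.16, 9.87 and 9.67 CPM, by the same 1.13 on the log2 scale (adjusted p 3.59e-06). Its 3′ UTR held 3 copies of AGCACTT. This match was not limited to falls. Of the 71 members with AGCACTT as their longest seed match, 6 rose and 2 fell by at least 1.5-fold. Those that rose were ZNF783, ZNF778, ZNF532, ZNF496, ZNF655 and ZNF696, and those that fell were ZNF704 and ZNF28. The part of the match in these changes was not tested. ZNF528, a KRAB gene with 15 fingers near the selection threshold, fell from 7.85, 9.01 and 8.60 CPM to 4.13, 4.58 and 4.37 CPM. In each of ZNF213, ZNF704 and ZNF528 the groups were well apart.

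The next largest falls were those of ZNF28 (log2 fold change -0.62), ZNF883 (-0.61), ZNF576 (-0.57), ZNF524 (-0.53), ZNF468 (-0.52), ZNF367 (-0.52), ZNF672 (-0.46) and ZNF827 (-0.46). ZNF827 is known for recruiting NuRD to telomeres in cells that lengthen them by recombination. ZNF28 and ZNF468 are neighbouring KRAB genes whose annotated exons overlap each other, and ZNF576 and ZNF524 overlap exons of SRRM5 and FIZ1, so their counts are uncertain where reads could be assigned to either gene. ZNF367, a factor described in erythroid cells, stood at 40.9, 45.4 and 44.6 CPM in control and 30.2, 29.6 and 31.3 CPM in overexpression (adjusted p 3.42e-05). Its control and overexpression libraries did not overlap. The other 24 members that fell had log2 fold changes from -0.42 to -0.11.

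ZNF783, a KRAB gene on chromosome 7, rose most. Its level was 18.8, 17.2 and 19.1 CPM in control and 32, 33.9 and 30.2 CPM in overexpression, a log2 fold change of 0.81 ± 0.069 (SE; edgeR adjusted p 7.92e-06). The KRAB gene ZNF778 followed, at 12.6, 10.5 and 11 CPM in control and 19.6, 20.5 and 18.4 CPM in overexpression (log2 fold change 0.78). In both genes the groups were clearly separated. ZNF721, a KRAB gene with 23 fingers, was more uneven: 16.9, 18.4 and 16.1 CPM in control against 21.8, 31.4 and 31.6 CPM in overexpression (0.73 ± 0.134, adjusted p 0.00127). Overexpression replicate 1 lay between the controls and its 2 companions, and the log2 ratio of the authors' FPKM means for this gene was 0.36.

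ZNF532 acts with ZNF592, ZNF687 and ZMYND8 in a chromatin-bound complex. It was at 22.7, 24.1 and 21.0 CPM in control and 37.2, 37.8 and 36.3 CPM in overexpression (log2 fold change 0.72 ± 0.066, edgeR adjusted p 1.3e-05). Its partner ZNF592 rose by less (0.23), ZNF687 did not pass (0.13, adjusted p 0.0679), and ZMYND8 rose by 0.20, a call lost without control replicate 1 or any overexpression replicate (adjusted p 0.0501 to 0.0950). ZNF496, a SCAN and KRAB protein that binds the histone methyltransferase NSD1, rose from 62.7, 58.6 and 58.7 CPM to 96.2, 97.2 and 102 CPM (0.72 ± 0.047, adjusted p 1.4e-06). It had the highest control level of the 12 members that rose most. All 3 overexpression libraries of ZNF496 were above the controls.

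Further down the same order stood ZNF74 (0.69), a gene of the chromosome 22 region lost in DiGeorge syndrome, ZNF22 (0.68), ZNF696 (0.64), ZNF655 (0.63), ZNF608 (0.52), ZNF263 (0.49) and ZNF282 (0.49). ZNF655, known as a partner of the signalling protein VAV1, had a narrow spread, with 55.7, 56.9 and 55.2 CPM in control and 87.3, 83.2 and 87.8 CPM in overexpression (adjusted p 2.27e-06). Its exons overlap those of FAM200A. ZNF263 binds many promoters, and ZNF282 was found as a repressor of the long terminal repeat of a retrovirus. The other 57 members that rose had log2 fold changes from 0.12 to 0.49, and the 111 that did not pass ran from -0.24 to 0.30.

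**Figure D2:**
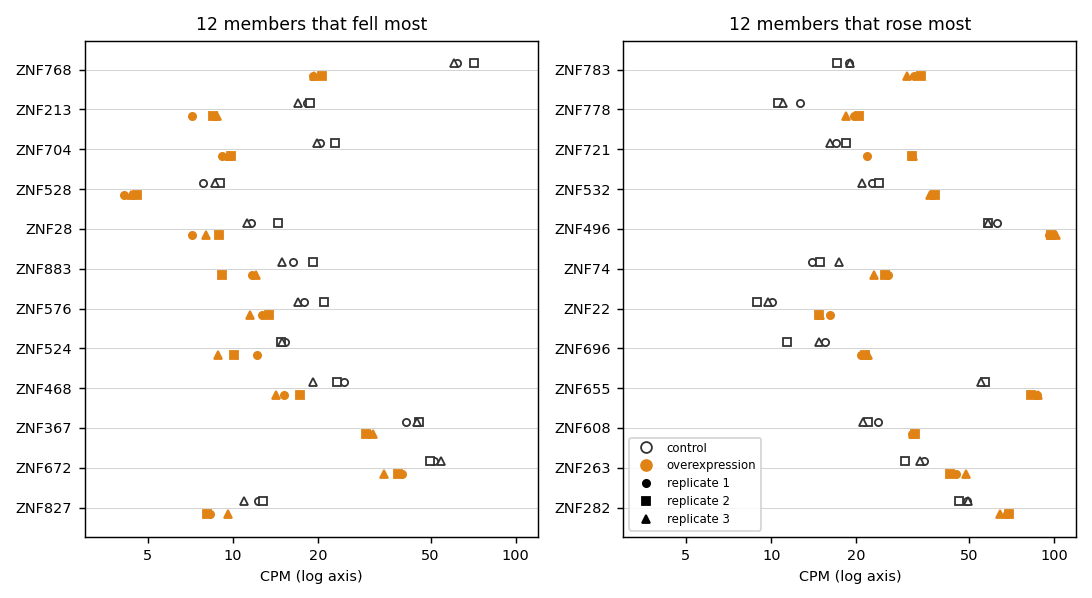
CPM on a log axis in each library for the 12 members that fell most (left) and the 12 that rose most (right), with open symbols for control and filled orange symbols for overexpression, shaped by replicate. No control symbol overlaps the overexpression range of the same gene, and ZNF768 shows the widest gap, from 60.5 CPM or more to 20.6 CPM or less.

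Members differ widely in level. On the authors' FPKM scale, which allows for gene length, the control means of members ran from 0.839 for ZNF431 to 46.4 for ZNF787, with a median of 4.58. The median over the 9966 genes at 8 CPM or more was 2.77 times as high. After ZNF787 came ZNF207 (45.7 FPKM), ZNF146 (42.5 FPKM), ZNF593 (34.7 FPKM) and ZNF664 (33.9 FPKM). By CPM the 5 highest members were ZNF207 (197 CPM), ZNF664 (167 CPM), ZNF146 (165 CPM), ZNF638 (125 CPM) and ZNF598 (107 CPM). None of these 5 changed by more than 1.26-fold. Members passed in 34 of 92 cases at 8 to 16 CPM (37.0%), 35 of 72 at 16 to 32 CPM (48.6%) and 36 of 52 at 32 CPM or more (69.2%). The share called also rose with level over all genes, from 49.8% to 52.5% and 60.2% in the same ranges, so that members of the lowest range were called less often than all genes there. In the lowest of these ranges 25 were higher and 9 lower, in the middle 21 and 14, and in the highest 23 and 13. Over all genes in the lowest range, 23.7% were higher and 26.1% lower, beside 27.2% and 9.78% of the members. In the middle range these shares were 26.0% and 26.5% for all genes and 29.2% and 19.4% for members. In the highest range they were 28.3% and 32% for all genes and 44.2% and 25% for members.

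The first role list held ZNF proteins known for work on RNA, ribosomes, ubiquitin, SUMO or the spindle. Of its 15 genes 13 were members, and 6 of these rose (46.2%) and 3 fell (23.1%), while 4 did not pass. Among all genes at 8 CPM or more, 27.0% were higher and 29.8% lower. ZNF598, the ubiquitin ligase that marks collided ribosomes, was at 107, 108 and 106 CPM in control and 140, 130 and 132 CPM in overexpression (log2 fold change 0.33 ± 0.041). ZNF622, which joins the large ribosomal subunit late in its assembly, rose by 0.38 ± 0.044, and the nucleolar protein ZNF330 by 0.39 ± 0.064. The libraries of the groups did not overlap in any of these 3 genes. ZNF451, a SUMO ligase, rose by 0.28, the RNA-binding ZNF106 by 0.21 and the double-stranded RNA binder ZNF346 by 0.20.

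The 3 members of that list that fell were ZNF326, ZNF207 and ZNF638. ZNF326, a subunit of a complex that couples RNA polymerase II to splicing, went from 48.4, 52.6 and 46.5 CPM to 38.6, 38.5 and 37.0 CPM (-0.36 ± 0.059). ZNF207 (BuGZ), which loads the checkpoint protein BUB3 at kinetochores, went from 197, 199 and 195 CPM to 172, 169 and 175 CPM (-0.18 ± 0.035). The fall of ZNF207 was tight between libraries though small, and the log2 ratio of its FPKM means was -0.50. ZNF638, which brings the HUSH silencing complex to unintegrated retroviral DNA, fell by 0.11 (adjusted p 0.0263), and this call was lost without control replicate 1, overexpression replicate 1 or overexpression replicate 2 (adjusted p 0.0708 to 0.114). The call of ZNF346 was lost without any single library but control replicate 2 (adjusted p 0.0544 to 0.121). ZNF593, ZNF706, ZNF830 and ZNF277 had log2 fold changes of -0.06, 0.01, 0.13 and -0.01.

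The second role list held ZNF proteins with known work at chromatin or at many promoters, and 26 of its 32 genes were members. Here 10 rose (38.5%), 2 fell (7.69%) and 14 did not pass, with a median log2 fold change of 0.13. Over all members 31.9% rose and 16.7% fell, and over all genes at 8 CPM or more 27.0% and 29.8%. Besides ZNF532, ZNF608 and ZNF263, the genes that rose were ZNF652 (0.42), ZNF281 (0.32), ZNF592 (0.23), ZNF462 (0.22), ZNF445 (0.21), ZNF395 (0.20) and ZNF609 (0.15). ZNF281, which binds GC-rich promoters, was at 78.7, 76.7 and 78.3 CPM in control and 95.3, 95.2 and 99.4 CPM in overexpression, with no overlap. ZNF445 is known for keeping DNA methylation at imprinted genes. The members that fell were ZNF503 (-0.23), a developmental corepressor, and ZNF644 (-0.16), a partner of the methyltransferases EHMT1 and EHMT2. The call of ZNF462 was lost without overexpression replicate 1 (edgeR adjusted p 0.0565), that of ZNF644 without control replicate 1 or overexpression replicate 2 (up to 0.0931), and that of ZNF609 without any single library but control replicate 2 (up to 0.125). ZNF143, an activator of many housekeeping promoters and of small nuclear RNA genes, stood at 20.7, 22.9 and 22.2 CPM in control and 22.0, 22.0 and 20.1 CPM in overexpression, and the groups overlapped. ZNF148 (-0.04), ZNF410 (-0.03), ZNF217 (0.13) and ZNF384 (0.11) also did not pass.

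KRAB members were then set beside the others. A protein was called KRAB-encoding when a 40-residue window matched at least 13 residues of a consensus read from the annotated zinc finger proteins. By this rule 111 members encode a KRAB box. Of them 33 rose (29.7%) and 12 fell (10.8%), with a median log2 fold change of 0.11. Among the 105 members without such a box, 36 rose (34.3%) and 24 fell (22.9%), with a median of 0.06. Over all genes at 8 CPM or more, 27.0% were higher and 29.8% lower. The groups differ in level, with a median control of 15.1 CPM for KRAB members and 27.2 CPM for the others. The share called was 40.5% and 57.1%. The summed level of the KRAB members went from 2013 ± 10.7 to 2234 ± 21.7 CPM, 11% higher (SD, n = 3 libraries). For the other members it went from 3825 ± 45.5 to 3901 ± 7.77 CPM, 1.99% higher. The count of KRAB members that fell dropped to 7 without control replicate 1 and to 7 without overexpression replicate 1. The difference between KRAB and other members was not tested. Of the 13 members that matched the exact SCAN pattern used here, 6 rose (ZNF496, ZNF263, ZNF500, ZNF445, ZNF197 and ZNF444). Of the same 13, 1 fell (ZNF213) and 6 did not pass. SCAN domains that differ from this short pattern were not counted, so 13 can be too low. The calls of ZNF500, ZNF197 and ZNF444 were each lost in 3 to 5 of the 6 fits that left out 1 library (adjusted p up to 0.150). By number of C2H2 fingers, 17 of 42 members with up to 4 rose (40.5%) and 11 fell (26.2%). With 5 to 9 fingers, 23 of 73 rose (31.5%) and 7 fell (9.59%). With 10 to 14, 17 of 64 rose (26.6%) and 11 fell (17.2%). With 15 or more, 12 of 37 rose (32.4%) and 7 fell (18.9%). Levels differ between these groups, with a median control of 32.2, 18.2, 15.8 and 17.2 CPM in the same order. The share called was 66.7%, 41.1%, 43.8% and 51.4%.

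Chromosome 19 held 83 members, 38.4% of them, beside 6.36% of the 9966 genes at the same control level. It held 54.1% of the KRAB members and 21.9% of the others. On chromosome 19, 21 members rose (25.3%) and 14 fell (16.9%), with a median log2 fold change of 0.06. On the other chromosomes 48 of 133 rose (36.1%) and 22 fell (16.5%), with a median of 0.12. Over all genes at 8 CPM or more, 27.0% were higher and 29.8% lower. The difference between chromosome 19 and the other chromosomes was not tested. Without overexpression replicate 1 the chromosome 19 counts were 12 and 6. Among the 551 other genes of chromosome 19 at 8 CPM or more, 135 were higher (24.5%) and 183 lower (33.2%), with a median of -0.02. The KRAB members on chromosome 19 numbered 60, of which 12 rose (20%) and 7 fell (11.7%), and their median was 0.05. The 51 KRAB members elsewhere had 21 that rose (41.2%) and 5 that fell (9.80%), and a median of 0.20. No member on chromosome 19 rose by 1.5-fold or more, and the 2 that fell that far were ZNF528 and ZNF28.

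**Figure D3:**
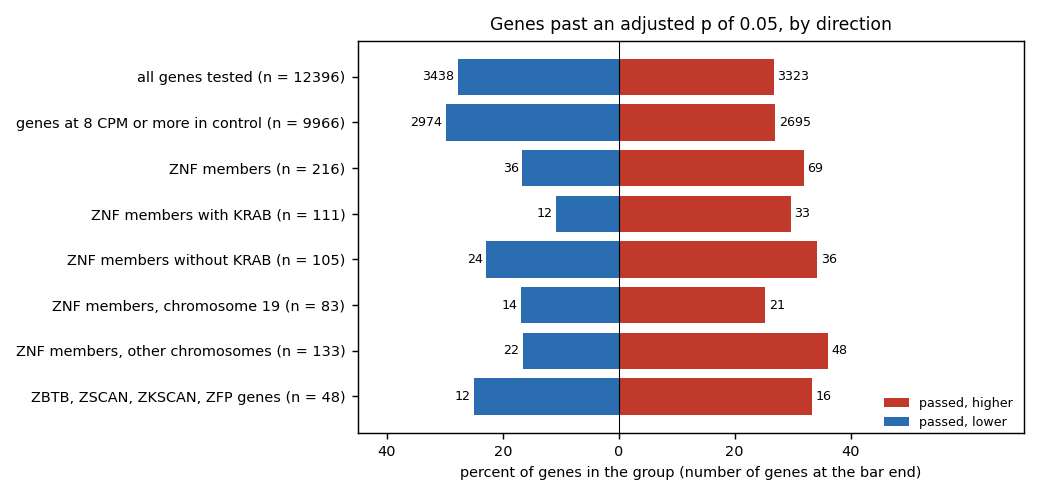
Percent of genes called lower (left of 0) and higher (right of 0) at an adjusted p under 0.05 in the background sets and in groups of members, with the number of genes at the end of each bar. The bar of lower calls is 29.8% for all genes at 8 CPM or more, 16.7% for the members and 10.8% for those with a KRAB box.

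Members that lie close together were then followed along the chromosomes. Runs of at least 5 members with gaps of at most 500000 bases were taken as clusters, a rule chosen after the values were seen, as were the genes named for it. It gave 9 clusters with 92 members. The cluster on the long arm of chromosome 7 (chr7:149069643-149497817) held 7 members, all KRAB genes, and all had positive log2 fold changes with a median of 0.26. Of these ZNF783, ZNF282, ZNF212 (0.41) and ZNF777 (0.22) rose, while ZNF786 (0.26), ZNF398 (0.23) and ZNF746 (0.08) did not pass. The call of ZNF777 was lost without overexpression replicate 2 (edgeR adjusted p 0.0686). Among all 51 KRAB members outside chromosome 19, which include these 7, 80.4% had positive log2 fold changes and the median was 0.20. Over all genes at 8 CPM or more, 49.0% had positive log2 fold changes, and 27.0% were called higher and 29.8% lower. A cluster on chromosome 16 (chr16:30378106-31084196) was mixed. In it 3 of 9 members fell, ZNF768, ZNF747 (-0.42) and ZNF668 (-0.24), while ZNF48 (0.42) and ZNF646 (0.24) rose. Falls were also counted among the 14 genes of this span at 8 CPM or more that are not ZNF-numbered. Of those 14, 7 were lower and 1 higher, with a median of -0.06, beside -0.06 for the members. ZNF768 and ZNF747 are neighbours among the members, and the call of ZNF668 was lost without overexpression replicate 1 or 3 (edgeR adjusted p up to 0.0549).

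The largest cluster, at the end of chromosome 19 (chr19:57191500-58481230), held 24 members, of which 22 encode a KRAB box. In it 5 rose and 1 fell, and the median log2 fold change was 0.04. Over all genes at 8 CPM or more, 27.0% were higher and 29.8% lower. Of the 6 genes of this span at that level that are not ZNF-numbered, 2 were higher and 2 lower. In the cluster at chr19:52012765-53580269 all 12 members encode a KRAB box, and 2 rose and 4 fell, ZNF528, ZNF28 and ZNF468 among them. This cluster ends close to the microRNA gene. The nearest member, ZNF331, lies 208 kb from the mature microRNA and did not pass (-0.04), and ZNF765 at 358 kb rose by 0.30 (edgeR adjusted p 0.0396). That call was lost without control replicates 1 or 2 or overexpression replicates 1 or 2 (adjusted p 0.0991 to 0.122). In the other 3 clusters with 9 or 10 members on chromosome 19, the numbers that rose and fell were 1 and 1 (from 8509678), 2 and 4 (from 43596392), and 3 and 3 (from 55476332). In the same order, these spans held 0, 3 and 5 genes at 8 CPM or more that are not ZNF-numbered. Of those, 0, 0 and 1 were higher and 0, 2 and 2 lower.

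**Figure D4:**
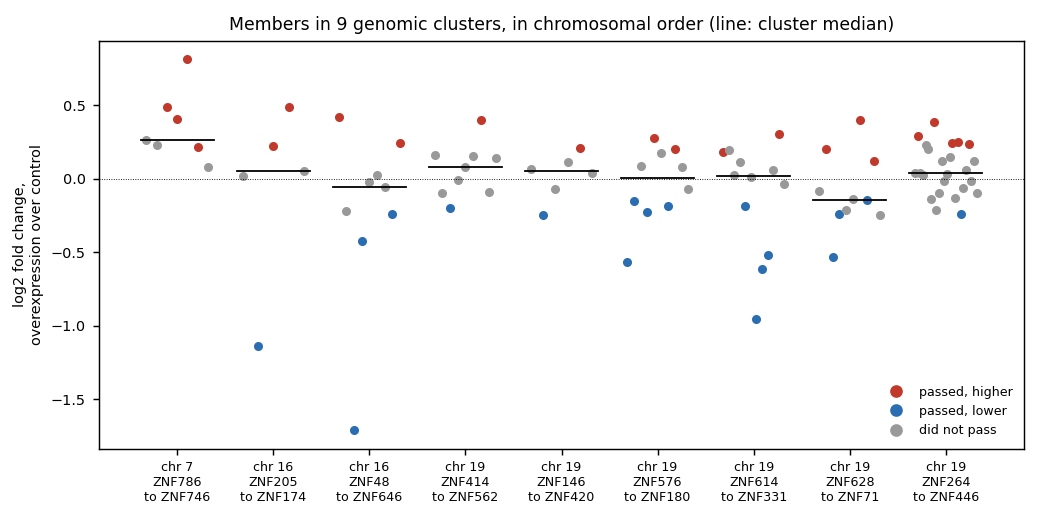
Log2 fold change of the members in the 9 clusters, in chromosomal order within each cluster and labelled by their first and last members, with a line at each cluster's median. All 7 points of the chromosome 7 cluster lie above 0, while the chromosome 16 cluster from ZNF48 to ZNF646 spans -1.71 to 0.42.

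Matches to the microRNA seed were counted in the annotated 3′ UTRs of 214 members, on the transcript strand and in the transcript with the longest 3′ UTR of each gene. A match is a description of the sequence and not a shown site. AGCACTTA was present in 10 members (4.67%), beside 4.34% of the genes at 8 CPM or more. Of these members 4 fell and 2 rose, and ZNF148, ZNF292, ZNF629 and ZNF776 did not pass. Their median log2 fold change was -0.05, beside -0.13 for the 428 genes with the match at the same control level, of which 46.3% were lower and 21.3% higher. ZNF367 fell most among the members with AGCACTTA (-0.52). The falls of ZNF260 (-0.25), ZNF317 (-0.20) and ZNF226 (-0.18, adjusted p 0.0494) were smaller. ZNF260 lost its call without control replicate 2 or overexpression replicates 1 or 2 (up to 0.0714), ZNF317 without control replicates 1 or 2 or overexpression replicates 1 or 2 (up to 0.0956), and ZNF226 without any single library but control replicate 2 (up to 0.132). ZNF260 went from 25.3, 30.6 and 27.3 CPM to 23.0, 22.8 and 23.9 CPM. The groups of ZNF260 lay side by side without overlap.

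ZNF3 and ZNF473, a KRAB protein known for its part in processing histone mRNA, hold the same 8 bases and rose. ZNF473 went from 31.5, 32.2 and 30.1 CPM to 36.5, 37.0 and 37.9 CPM (log2 fold change 0.26), and ZNF3 rose by 0.20. A further 71 members held AGCACTT without the A after it. Of these 27 rose and 10 fell, and their median was 0.16. The 2172 genes with that match as their longest had 27.6% higher and 31.9% lower, with a median of -0.02. Members with no match of 6 bases or more numbered 111, and 34 rose (30.6%) and 17 fell (15.3%), beside 26.6% and 28.3% of the 5751 genes of that class. The part of the matches in these rises and falls was not tested.

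Either AGCACTTA or AGCACTT was present in the 3′ UTR of 37.9% of members and of 26.4% of genes at 8 CPM or more. Taken with or without a match, 3′ UTRs were longer in members, with a median of 1923.5 bases beside 1451 for genes at 8 CPM or more. The part of length in the difference was not tested. AGCACTT was also present in the coding sequence of 40 members (18.5%, beside 14.2% of the genes at 8 CPM or more), of which 15 rose and 7 fell.

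Proteins through which KRAB boxes act, and other silencing factors such as the HUSH complex and DNMT1, were followed as a list. Its 30 genes, named corepressor genes here, were all measured. Of these 9 were lower, 5 higher and 16 did not pass, and the median log2 fold change was -0.01. The share that was lower, 30%, was at the 29.8% of all genes at 8 CPM or more, and the share that was higher, 16.7%, was below their 27.0%. TRIM28 itself, the scaffold, was at 1420, 1424 and 1424 CPM in control and 1358, 1382 and 1385 CPM in overexpression. Its libraries did not overlap, but the difference of -0.04 did not pass (edgeR adjusted p 0.286). SETDB1, the methyltransferase that TRIM28 recruits, rose by 0.22. TASOR (listed as FAM208A), the scaffold of the HUSH complex, fell by 0.50, and its partner PPHLN1 rose by 0.17, while MPHOSPH8 did not pass (0.01). Within NuRD, RBBP4 fell by 0.44, HDAC1 by 0.28, CHD3 by 0.28 and CHD4 by 0.19, whereas GATAD2A rose by 0.43 and MTA1 by 0.17. The maintenance methyltransferase DNMT1 and its partner UHRF1 fell by 0.21 and 0.26. SUMO2 and the HP1 protein CBX5 fell by 0.15 and 0.14, and each of these calls was lost in 4 of the 6 fits that left out 1 library (edgeR adjusted p up to 0.130 and 0.103). SETDB1 lost its call without overexpression replicate 2 (0.0542), PPHLN1 in 4 of those fits (up to 0.111) and MTA1 in 5 (up to 0.174). The count of genes of the list that rose dropped from 5 to 2 without control replicate 1 and without each overexpression replicate in turn.

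Related zinc finger families were counted at the same control level. Of 48 genes named ZBTB, ZSCAN, ZKSCAN or ZFP with a number, 16 were higher (33.3%) and 12 lower (25%), near the 27.0% and 29.8% of all genes at 8 CPM or more, with a median log2 fold change of 0.05. Among the 29 ZBTB genes, whose proteins pair fingers with a BTB domain, 9 were higher and 9 lower. Of 8 ZSCAN genes 3 were higher and 0 lower at an edgeR adjusted p under 0.05.

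The counts rest unequally on single libraries. Without overexpression replicate 1 the number of members that fell was 23 in place of 36, and without control replicate 3, the library that stood apart, 64 rose and 37 fell. In all 6 fits that left out 1 library, 71 of the 105 calls held, 49 higher and 22 lower, and all 24 members shown by library kept their calls under every setting that fitted them. Annotated exons of 50 members overlap those of another measured gene.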

How the data were processed

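RNA from 3 control and 3 overexpression libraries was sequenced; per the labels' protocols libraries were made with NEBNext Ultra RNA reagents, a kit that keeps no strand information. For each library the authors deposited FPKM values and read counts in whole numbers, and for the comparison a log2 fold change with a p-value, per the file headers. The submitters' processing notes name the tools DESeq2 1.38.3, StringTie 2.2.1 and HISAT2 2.0.4 and the build GRCh38, without roles. The counting method was not given in the sources used here, so counts of near-identical paralogs and overlapping genes are uncertain. The deposited p-value and log2 columns were not used as results, and FPKM served to compare levels between genes.

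Of 14006 rows, 12396 have an Ensembl ID. The 1610 loci without a gene name held 2.64 to 3.63% of counts and were left out. Samples were grouped by title, and 0 per-sample columns lacked a sample. The test was that of edgeR 4.0.16 (R 4.3.3) on the counts (TMM factors 0.990 to 1.01, quasi-likelihood test, 2 groups, no block, Benjamini-Hochberg over all genes, threshold 0.05). The smallest total over the 6 libraries is 208 counts, and no filter was applied. No 2 replicates were the same within sampling noise (chi-square over its degrees of freedom, 6.86 to 38.6). The fit was tested on simulated data.

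Members and lists were chosen with earlier results of these data known. Named genes were the 12 called members with the largest rise and the 12 with the largest fall, the 5 with the highest control CPM, the 3 ZNF genes on either side of the threshold, the 2 role lists, members with AGCACTTA and the called corepressor genes. Positions, 3′ UTRs (at least 50 bases) and translated coding sequences come from GENCODE 29, since a RefSeq protein table was not used here. The consensus of the KRAB box came from 235 proteins, and the SCAN and finger patterns are short sequence patterns. DESeq2 1.42.0, other scalings, a filter, a replicate block, other member thresholds and leaving out each library were tried as alternatives, and members without exonic overlap were added after seeing the data. A listed marker and a group of seed matches are not reported here.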

Additional observations from a re-analysis of the deposited data

How the results depend on the processing

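The count of all members that rose stayed within 1.5 times of 69 under every alternative run (DESeq2 gave 73 higher and 36 lower, beside 27.3% and 30.0% of the genes at 8 CPM or more). The median log2 fold change of the members was 0.0701 with library totals, 0.0812 with the filter, 0.109 with members chosen by the mean over all libraries, 0.114 by the overexpression mean, 0.0615 over every ZNF gene, 0.0813 without exonic overlap, and 0.0745 to 0.0976 without 1 replicate. With every ZNF gene, 59 fell, 31 of them KRAB genes, and on chromosome 19 32 rose and 31 fell. Without exonic overlap, 9 fell on chromosome 19.

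Leaving out 1 replicate gave 23 to 37 members lower, 7 to 12 KRAB members lower, 12 to 20 higher and 6 to 14 lower on chromosome 19, and 2 to 5 corepressor genes higher. These fits test fewer libraries. The numbers shared by the groups did not pair the libraries: same-numbered deviations correlated at -0.14, -0.05 and 0.10, and not every library correlated best with its own number. With the replicate block 68 members rose and 35 fell, and 97 of the 105 calls were shared.

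Of 84 named genes, 62 passed, and 47 of these kept their call in every setting. Genes near 0 that did not pass changed sign without 1 library, with log2 fold changes of -0.0727 to 0.0152 for ZNF143, -0.109 to 0.0202 for ZNF148, -0.0286 to 0.0513 for ZNF202, -0.0328 to 0.0404 for ZNF277, -0.0920 to 0.0474 for ZNF292, -0.0941 to 0.0262 for ZNF410, -0.0627 to 0.00162 for ZNF664, and -0.00315 to 0.0353 for ZNF706. The cause was not tested.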
